A study of Mus musculus with 19 samples.

Results

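Protease inhibitor genes were compared between 2 prostate lobes and 2 diets of the mouse. The set held every gene on the array whose symbol begins with Serpin, Spink, Spint, Wfdc, Timp1 to Timp4 or Cst with a number, together with Slpi. This gave 75 of the 18193 genes named by a single symbol, measured by 102 probe sets, and the probe set with the highest mean over all arrays stood for its gene. The choice used names and mean levels and no difference between groups.

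All mice were C57BL/6J, 8 weeks old at the start, and ate a control diet or a high fat diet (HFD) freely for 12 weeks, 5 mice per diet. RNA of the ventral prostate (VP) and the dorsolateral prostate (DLP) was labelled with biotin and hybridized to a 3′ expression array. The 19 arrays comprised 5 control VP, 5 HFD VP, 5 control DLP and 4 HFD DLP, and the anterior lobe was not analysed here. Arrays are not tied to single mice in the labels. The lobes could therefore not be paired by mouse, and a p-value reflects the spread among these samples, which may be technical.

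Most of these proteins block proteases by acting as a bait. Serpins snap into a new shape once cut and trap a serine protease, Kazal domains (Spink), Kunitz domains (Spint) and many WAP domains (Wfdc, Slpi) plug the active site of serine proteases, TIMPs bind metalloproteinases, and cystatins bind cysteine cathepsins. The prostate secretes proteases such as kallikreins into its fluid, and epithelial cells and stroma make inhibitors that limit them. A few family members, among them Serpinh1 and Serpinb5, are not inhibitors at all.

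Levels are on a log2 scale converted from the deposited logarithms, where a step of 1 is a doubling, and every array had a median of 1.85. Levels of different genes come from different probe sets and are not set against each other. The lobe labels held on all arrays for Tgm4, a transglutaminase secreted by the dorsolateral lobe, at 12.31 to 12.73 on the DLP arrays and 1.36 to 2.37 on the VP arrays. Among lists of cell type markers, 4 of 4 basal epithelial and 4 of 6 smooth muscle genes were higher in DLP on the control diet, and 2 and 4 on the high fat diet, where 28.2% and 26.8% of all tested genes were higher. All 3 nerve genes tested were higher on the control diet and 1 on the high fat diet, and of 6 luminal epithelial genes 1 was higher and 3 lower on the control diet and 2 and 3 on the high fat diet. Albumin was below the median of every array. Of 5 genes of liver or plasma, Ttr, which encodes transthyretin, alone was tested, at 2.70 to 3.89 on the VP arrays and 0.95 to 1.48 on the DLP arrays (-2.09, adjusted p = 3.7e-09, and -2.15, adjusted p = 6.2e-09). In addition, 1 of 4 adipocyte genes and 2 of 6 seminal vesicle genes reached the filter. In these bulk samples, fewer cells of a type and less RNA per cell cannot be told apart.

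A gene was tested when it lay above the array median on at least 4 arrays, as 28 of the 75 inhibitors did (37.3%), against 64.4% of all genes. Of the 28, 19 were above the median on all 19 arrays. Among the 47 not tested, 43 were below it on every array, and the others (Serpind1, Serpini1, Spinkl and Wfdc15b) exceeded it on at most 3 arrays with a highest value of 2.12. The serpins accounted for 40 of the 75 genes and 11 of the 28. Of 14 clade A serpins, which are mostly plasma proteins made by liver, Serpina3n alone was tested, while 7 of 18 clade B serpins, which stay inside cells, were. All 4 TIMPs, 3 of 8 Spink genes, 2 of 3 Spint genes, 7 of the 12 genes of the Wfdc group with Slpi, and 1 of 8 cystatins, Cst3, were tested.

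**Figure D1:**
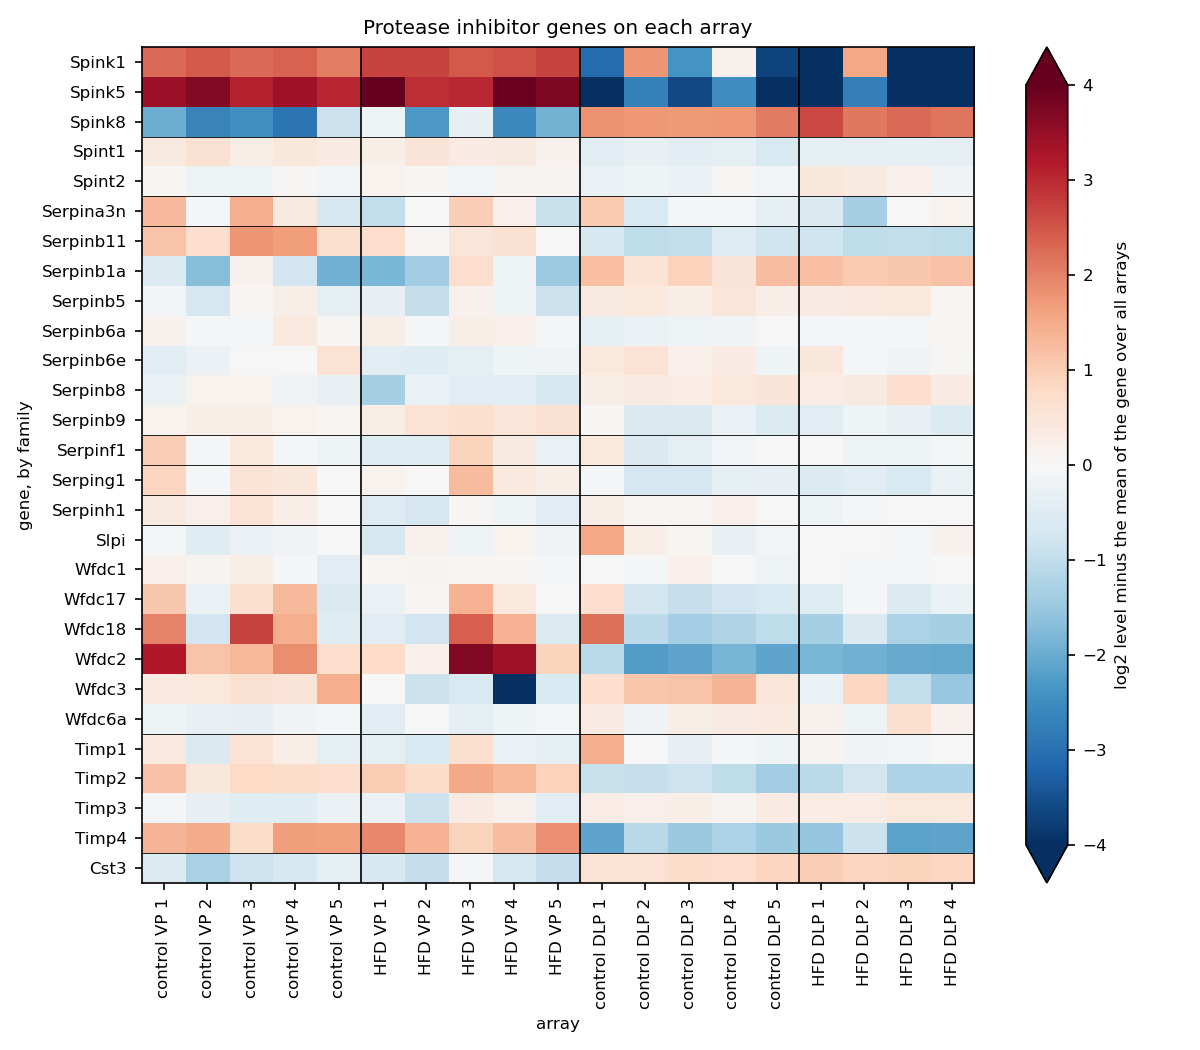
Log2 level of the 28 tested inhibitors (rows, grouped by family) on each of the 19 arrays (columns, grouped by lobe and diet), as the difference from the mean of the gene over all arrays, with colours saturating at 4 in either direction. Spink5 is high on every VP array and low on every DLP array, Spink8 runs the other way, and Wfdc18 and Wfdc2 are high on single arrays within a group.

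The lobes differed in most of the tested inhibitors. On the control diet, 18 of the 28 passed an adjusted p of 0.05, 7 higher and 11 lower in DLP than in VP, where 55.0% of all 11715 tested genes passed, 28.2% higher and 26.8% lower. With the high fat diet, 16 passed, 7 higher and 9 lower, against 52.9% of all genes, 26.8% higher and 26.1% lower. The share of inhibitors that passed was thus near that of all genes. A gene that passes the filter only through the lobe where it is high must differ between lobes, so the 19 inhibitors above the median on all arrays were also counted alone: 12 passed on the control diet and 11 on the high fat diet, against 56.0% and 54.7% of all such genes. The median size of the log2 difference over the 28 was 0.55 on the control diet and 0.76 on the high fat diet, against 0.30 over all genes on both diets, which carries the same limit of the filter. The 16 inhibitors that passed on the high fat diet all passed on the control diet, and Serpinb6a and Wfdc17 passed on the control diet alone, although for neither did the lobe difference itself differ between diets (0.15, adjusted p = 0.81, and 0.24, adjusted p = 0.94). Without the 4 arrays that were high in acute phase genes (described further on), 15 and 16 of the 28 passed. The share of all genes in that setting is not given here.

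**Figure D2:**
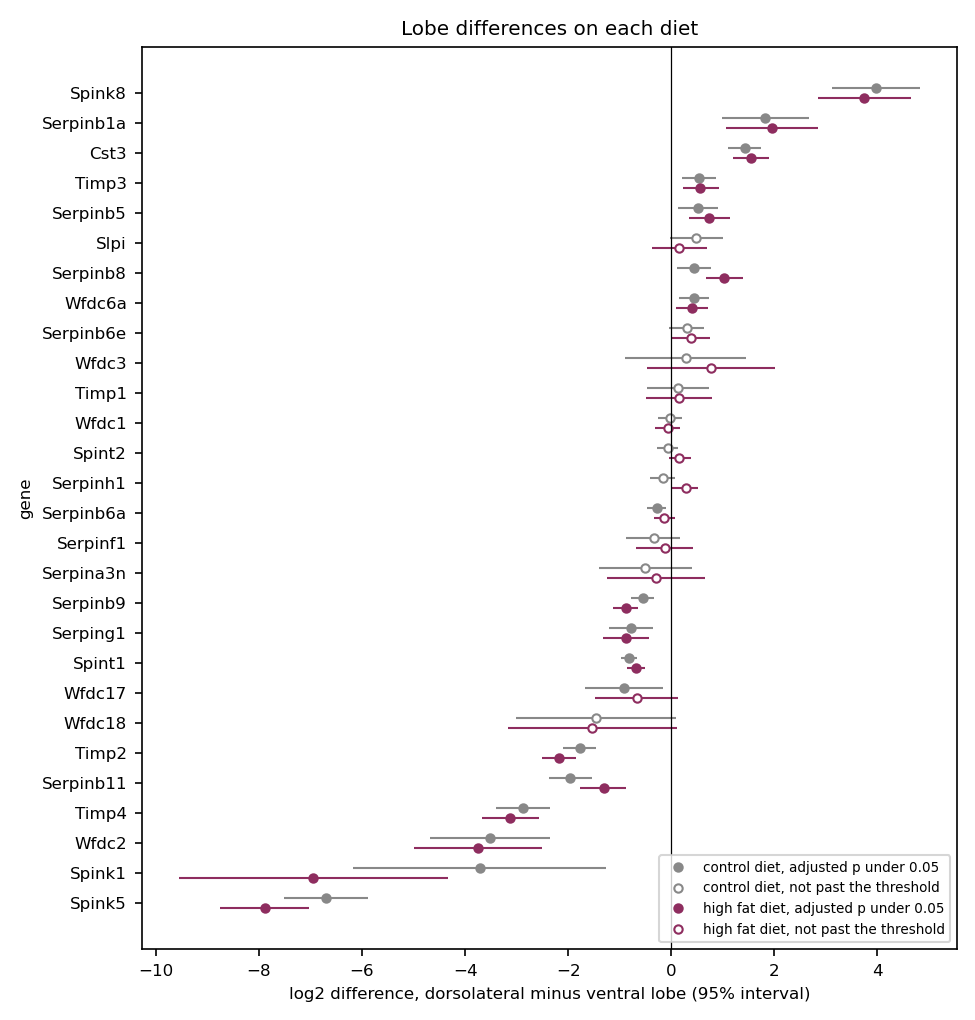
Log2 difference of DLP minus VP for each tested inhibitor with its 95% interval, on the control diet (grey) and the high fat diet (purple). Filled points passed an adjusted p of 0.05. Spink5, Spink1, Wfdc2 and Timp4 lie farthest to the left and Spink8 farthest to the right on both diets.

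The 3 Kazal inhibitors tested differed widely between lobes, in both directions. Spink5, which encodes LEKTI, an inhibitor of kallikreins in skin, read 9.41, 9.68, 9.09, 9.39 and 9.05 on the control VP arrays and 1.98, 3.31, 2.38, 3.51 and 1.95 on the control DLP arrays. In the HFD groups it read 10.01, 8.96, 9.02, 9.94 and 9.74 in VP and 0.74, 3.27, 1.06 and 1.50 in DLP. No DLP array came near any VP array, and 3 of the 4 HFD DLP arrays were below the array median. The log2 difference was -6.70 ± 0.39 (SE, adjusted p = 1.9e-11) on the control diet and -7.89 ± 0.41 (adjusted p = 4.9e-12) on the high fat diet. Since DLP lies near the low end of the scale, the size depends on the offset inside the logarithm, and with an offset of 16 in place of 1 the differences were -4.92 and -5.33.

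Spink1, a trypsin inhibitor first known from pancreatic juice and also secreted by male accessory glands of the mouse, was near the top of the scale on all VP arrays, at 12.07 to 12.73. In DLP it was spread widely, with 6.96, 11.81, 7.63, 10.21 and 6.34 on the control arrays and 3.50, 11.58, 3.64 and 4.07 on the HFD arrays. Every DLP array was below every VP array, with the arrays numbered 2 of both diets closest to VP and control DLP 4 next. The difference was -3.72 (95% interval -6.18 to -1.26, adjusted p = 0.011) on the control diet and -6.95 (-9.56 to -4.34, adjusted p = 1e-04) on the high fat diet. Mug1, a plasma-type inhibitor of another family with 6.15 to 9.37 in VP, read 2.63 and 3.54 on the DLP arrays numbered 2 and 0.26 to 0.88 on the other 7 DLP arrays, control DLP 4 included at 0.26. Whether RNA of VP on those arrays has a part in the Spink1 values was not tested. The control diet call was lost without the 4 arrays high in acute phase genes (-3.32, adjusted p = 0.082).

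Spink8, a further Kazal gene, ran the opposite way. It read 2.62, 1.94, 2.18, 1.70 and 3.76 in control VP and 6.42, 6.35, 6.31, 6.35 and 6.69 in control DLP. In HFD VP it read 4.43, 2.32, 4.30, 2.03 and 2.72, and in HFD DLP 7.26, 6.74, 6.89 and 6.75. All 9 DLP arrays were above all 10 VP arrays. The DLP minus VP difference was 3.98 ± 0.41 (adjusted p = 7.8e-08), or 15.8-fold, on the control diet and 3.75 ± 0.43 (adjusted p = 4.1e-07), or 13.4-fold, on the high fat diet. With an offset of 16 these differences of Spink8 were 2.26 and 2.42.

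**Figure D3:**
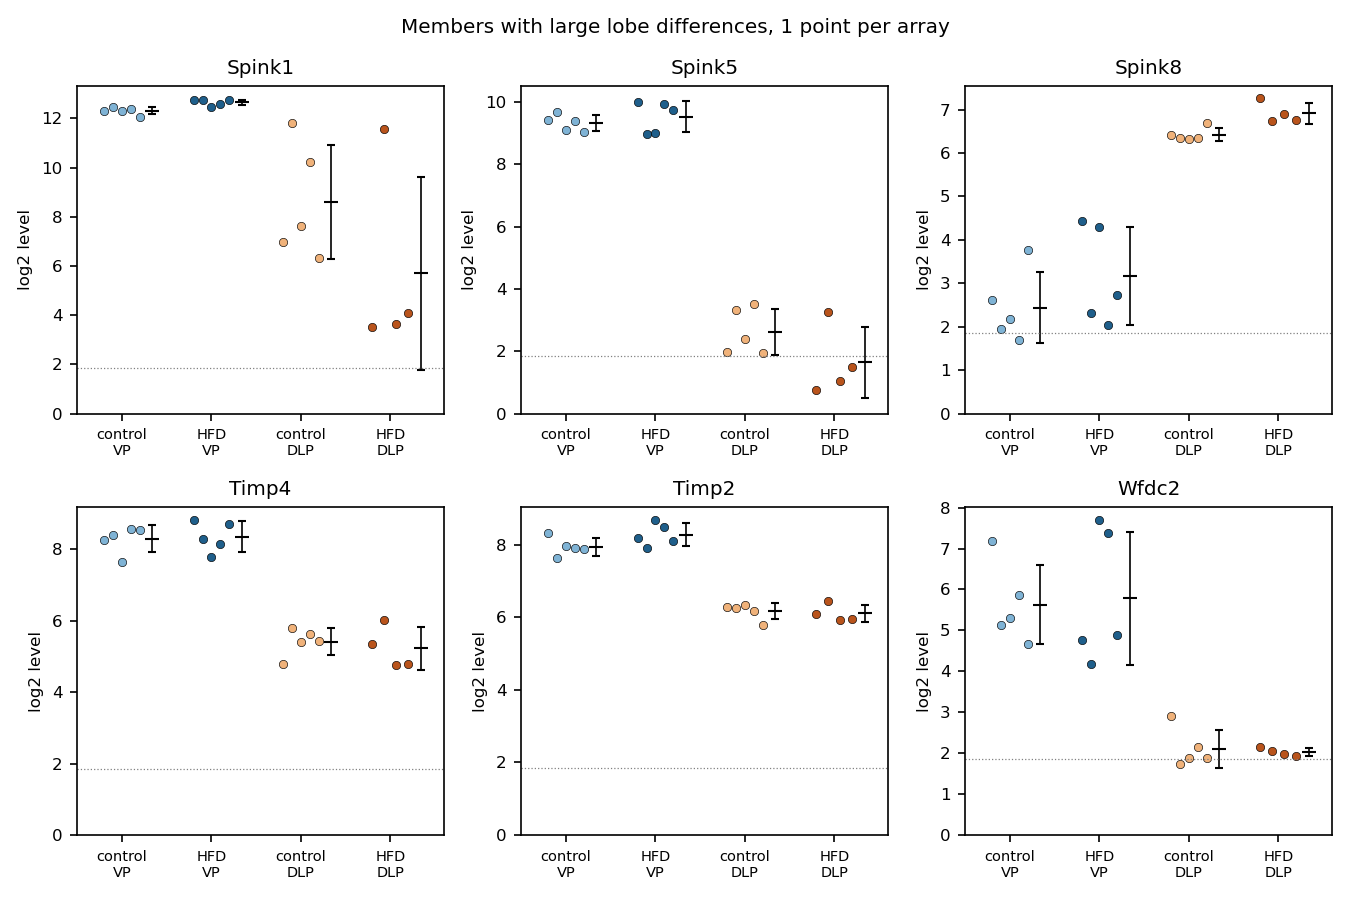
Log2 level of 6 inhibitors in the 4 groups, 1 point per array, with the mean and SD of each group beside the points and the array median of 1.85 as a dotted line. The DLP points of Spink1 spread from 3.50 to 11.81, whereas those of Spink8, Timp4 and Timp2 stay together and apart from VP.

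Spint1 encodes HAI-1, the Kunitz inhibitor of matriptase and of the activator of hepatocyte growth factor. Its levels were tight, at 6.38 ± 0.14 (SD, n = 5) in control VP, 6.30 ± 0.13 (SD, n = 5) in HFD VP, 5.55 ± 0.11 (SD, n = 5) in control DLP and 5.61 ± 0.02 (SD, n = 4) in HFD DLP. The lowest VP array, at 6.15, was above the highest DLP array, at 5.68. It was 1.77-fold lower in DLP on the control diet (-0.82, adjusted p = 1.6e-08) and 1.60-fold lower on the high fat diet (-0.68, adjusted p = 5.4e-07). The 6 luminal epithelial markers went both ways, with 1 higher and 3 lower in DLP on the control diet and 2 and 3 on the high fat diet. Cdh1, which encodes E-cadherin, was lower by -0.94 and -0.87 and Epcam by -0.54 and -0.55, whereas Pbsn was higher by 2.18 and 2.25. Their part in the Spint1 difference was not tested. Its relative Spint2, which encodes HAI-2, was 9.60 ± 0.12 in control VP and 9.53 ± 0.13 in control DLP, a difference of -0.07 (95% interval -0.27 to 0.13) that did not pass.

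Of the 7 clade B serpins tested, 3 were higher and 3 lower in DLP on the control diet, and 3 and 2 on the high fat diet. Serpinb1a, an inhibitor of the neutrophil proteases elastase and cathepsin G, read 4.07, 2.91, 4.77, 3.84 and 2.68 in control VP and 5.80, 5.14, 5.52, 5.11 and 5.84 in control DLP. In HFD VP it read 2.77, 3.22, 5.32, 4.40 and 3.15, and in HFD DLP 5.80, 5.65, 5.68 and 5.78. DLP was uniformly high and VP scattered. The differences were 1.83 (adjusted p = 7.6e-04) and 1.96 (adjusted p = 7.4e-04), and with an offset of 16 those of Serpinb1a were 1.07 and 1.17.

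Serpinb11 was lower in DLP, with 4.21, 3.73, 4.85, 4.74 and 3.70 in control VP against 2.44, 2.05, 2.09, 2.57 and 2.29 in control DLP. The HFD arrays read 3.78, 3.11, 3.55, 3.69 and 3.07 in VP and 2.28, 2.05, 2.10 and 2.06 in DLP. The groups did not overlap on either diet, with differences of -1.96 (adjusted p = 8.7e-08) and -1.31 (adjusted p = 3.3e-05). Serpinb9, which protects cells from granzyme B, was lower in DLP by smaller steps, -0.55 (adjusted p = 2.5e-04) and -0.88 (adjusted p = 2.6e-06). With an offset of 16, Serpinb11 gave -0.79 and -0.42 and Serpinb9 -0.25 and -0.43.

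Serpinb8, an inhibitor of furin, and Serpinb5, which encodes maspin, were higher in DLP on both diets. Serpinb8 was 1.73 ± 0.22 in control VP and 2.18 ± 0.11 in control DLP, near the array median, and 1.20 ± 0.42 in HFD VP and 2.23 ± 0.18 in HFD DLP. It was above the array median on all DLP arrays, on 2 control VP arrays and on 0 HFD VP arrays. Serpinb8 thus reached the filter through DLP, and its lobe differences carry the limit of the filter given above. Its differences were 0.44 (adjusted p = 0.025) and 1.03 (adjusted p = 4.3e-05), and the first was lost without control VP 1, control VP 5 or control DLP 5, or without the 4 arrays high in acute phase genes (adjusted p 0.056 to 0.063). With an offset of 16, the differences of Serpinb8 shrank to 0.09 and 0.18 and still passed.

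Serpinb5 rose from 2.82 ± 0.36 to 3.34 ± 0.10 on the control diet (0.52, adjusted p = 0.021) and from 2.55 ± 0.47 to 3.30 ± 0.16 on the high fat diet (0.74, adjusted p = 0.0033). The first call was lost without control VP 2 (0.39, adjusted p = 0.072), and with an offset of 16 the differences of Serpinb5 were 0.18 and 0.24. The mean of the 4 basal epithelial markers ran from 2.98 to 3.59 in control VP and from 3.59 to 4.14 in control DLP, and from 2.93 to 3.61 and 3.76 to 3.90 on the high fat diet, and its part in the Serpinb5 difference was not tested. The other 3 probe sets of Serpinb5 were also higher in DLP, by 0.72 to 0.97 on the control diet and 0.73 to 1.12 on the high fat diet.

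Serpinb6a, an inhibitor of cathepsin G, differed little, at 8.14 ± 0.19 in control VP and 7.86 ± 0.13 in control DLP (-0.28, adjusted p = 0.014), and at -0.14 (adjusted p = 0.25) on the high fat diet. Its control diet call was lost without the 4 arrays high in acute phase genes (adjusted p = 0.055). Serpinb6e, measured by a probe set whose probes can match other transcripts, gave 0.30 (adjusted p = 0.13) and 0.38 (adjusted p = 0.072).

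Among the secreted serpins, Serping1, the inhibitor of the complement proteases C1r and C1s, was lower in DLP. It read 7.48, 6.59, 7.20, 7.08 and 6.61 in control VP, 6.76, 6.64, 7.90, 7.02 and 6.86 in HFD VP, 6.58, 5.95, 5.96, 6.26 and 6.31 in control DLP, and 6.09, 6.18, 6.02 and 6.35 in HFD DLP. The control DLP 1 value fell just short of the lowest VP array. The differences were -0.78 (adjusted p = 0.0031) and -0.88 (adjusted p = 0.002). The transcripts of its targets were higher in the same lobe, C1ra by 4.97 and C1s1 by 1.90 on the control diet (adjusted p = 4e-15 and 8.3e-08), and by 5.10 and 1.93 on the high fat diet.

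Serpinf1, which encodes the anti-angiogenic factor PEDF, and the acute phase protein Serpina3n did not pass between lobes on either diet. Serpinf1 differed by -0.34 (95% interval -0.87 to 0.18) and -0.12 (-0.68 to 0.43), and Serpina3n by -0.50 (-1.40 to 0.40) and -0.30 (-1.25 to 0.66).

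In the WAP group, Wfdc2, also known as HE4 and secreted by ducts of several organs, had the widest lobe difference. It read 7.19, 5.14, 5.30, 5.86 and 4.67 in control VP and 4.76, 4.19, 7.70, 7.38 and 4.88 in HFD VP. In DLP it read 2.90, 1.74, 1.87, 2.14 and 1.89 on the control diet and 2.15, 2.06, 1.97 and 1.93 on the high fat diet, close to the array median. The VP values were scattered, yet all were above every DLP value. The difference was -3.52 ± 0.56 (adjusted p = 2.4e-05), or 11.5-fold lower in DLP, on the control diet and -3.75 ± 0.59 (adjusted p = 2.4e-05), or 13.5-fold lower, on the high fat diet. With an offset of 16 these became -1.77 and -1.99.

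Wfdc6a, low on every array, gave 0.44 (adjusted p = 0.012) and 0.40 (adjusted p = 0.03), with 4 arrays above the array median, all of them DLP. With an offset of 16 both differences of Wfdc6a were 0.07. The first call was lost without the 4 arrays high in acute phase genes (0.39, adjusted p = 0.088), and the second in 8 settings, at most with adjusted p = 0.16 without HFD DLP 3 (0.25). Wfdc1, which encodes a secreted protein of stroma, gave -0.02 (95% interval -0.25 to 0.21) and -0.07 (-0.32 to 0.17). Slpi, an inhibitor of neutrophil elastase, gave 0.49 (-0.02 to 1.00) and 0.16 (-0.38 to 0.70). Wfdc3 did not pass between lobes either, at 0.28 (-0.90 to 1.45) and 0.77 (-0.47 to 2.02).

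The TIMPs split by lobe. Timp4 read 8.27, 8.40, 7.65, 8.58 and 8.54 in control VP and 4.79, 5.79, 5.41, 5.64 and 5.43 in control DLP. With the HFD it read 8.82, 8.29, 7.78, 8.14 and 8.72 in VP and 5.35, 6.03, 4.75 and 4.78 in DLP. VP was higher than DLP on every array, with differences of -2.88 ± 0.25 (adjusted p = 7.5e-09), or 7.34-fold, and -3.12 ± 0.26 (adjusted p = 5.7e-09), or 8.71-fold. Its second probe set gave -2.86 and -2.96 (exact permutation p = 0.0079 and 0.016, the smallest that 5 against 5 and 5 against 4 arrays allow).

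Timp2, which both inhibits metalloproteinases and helps MMP14 to activate MMP2, read 8.34, 7.64, 7.97, 7.92 and 7.88 in control VP and 6.30, 6.27, 6.34, 6.17 and 5.79 in control DLP. On the high fat diet it read 8.19, 7.91, 8.69, 8.50 and 8.10 in VP and 6.10, 6.46, 5.92 and 5.96 in DLP. The gap between lobes was wide next to the spread within each, -1.77 ± 0.15 (adjusted p = 5.4e-09) and -2.17 ± 0.16 (adjusted p = 7.2e-10). Its 6 probe sets did not give the same answer. Another 3 were lower in DLP, by -1.15, -0.86 and -0.58 on the control diet, 1 was above the median on no array, and 1 was higher, at 3.37 ± 0.54 in control VP and 4.30 ± 0.31 in control DLP (0.93, exact permutation p = 0.0079). With the mean of its probe sets, Timp2 gave -0.57 and -0.85. Which transcripts each one detects was not tested.

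Timp3, the TIMP that binds the extracellular matrix, was higher in DLP, at 5.38 ± 0.19 against 5.93 ± 0.09 on the control diet (0.55, adjusted p = 0.006) and 5.48 ± 0.48 against 6.06 ± 0.08 on the high fat diet (0.57, adjusted p = 0.0068). Its other 3 probe sets gave 0.25 to 0.73 and 0.29 to 0.96. The mean of the 6 smooth muscle markers ran from 6.91 to 7.42 in control VP and 7.67 to 7.82 in control DLP, and its part in the Timp3 difference was not tested. Timp1 was 2.88 ± 0.49 in control VP and 3.01 ± 0.72 in control DLP, a difference of 0.13 (95% interval -0.47 to 0.74).

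Cst3, which encodes cystatin C, the secreted inhibitor of cysteine cathepsins, read 7.83, 7.09, 7.54, 7.74 and 7.98 in control VP and 8.96, 8.97, 9.10, 9.05 and 9.24 in control DLP. On the high fat diet it read 7.75, 7.41, 8.32, 7.68 and 7.41 in VP and 9.36, 9.24, 9.27 and 9.22 in DLP. Every DLP array was above every VP array, by 1.43 ± 0.16 (adjusted p = 1.9e-07), or 2.69-fold, and by 1.56 ± 0.16 (adjusted p = 1.4e-07), or 2.94-fold.

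The tested proteases that these inhibitors act on went both ways between lobes. Of 47 genes on the array listed with the serine proteases, 16 were tested. Klk1 and Klk1b24 were the only kallikreins among the tested genes, and the others, such as Klk4 to Klk13, did not reach the filter. Of the 16, 6 were higher and 4 lower in DLP on each diet. The list includes Plaur, the receptor of urokinase, which is not itself a protease. Tmprss4, a membrane serine protease, was lower by -2.14 and -1.94. Of 20 listed metalloproteinases of the MMP, ADAM and ADAMTS families on the array, 12 were tested. Of the 12, 4 were higher and 2 lower on the control diet and 3 and 1 on the high fat diet. Mmp7, or matrilysin, led them with 7.01 and 6.15, and Adam10, a sheddase, followed with 1.39 and 1.43. Of 12 genes listed as cysteine cathepsins and legumain, 3 were higher and 5 lower on each diet, with Ctsl at -1.31 and -1.36 and Ctsc at 1.15 and 1.31. Ctsa in this list is a serine carboxypeptidase. Of 28 genes on the array listed as protease inhibitors of other families, 12 were tested. Among the 12, 3 were higher and 5 lower on the control diet and 2 and 4 on the high fat diet. Mug1 gave -6.52 and -6.58, and Cast, which encodes the calpain inhibitor calpastatin, -1.37 and -1.06. The median differences of these 4 lists lay between -0.33 and 0.15, and 55.0% and 52.9% of all genes passed, so that the counts are read as a description of these genes.

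Diet differences were few. In VP, Serpinh1 alone of the 28 passed, lower on the high fat diet, where 1.11% of all genes passed. In DLP none passed, as none of all genes did (0.0%), and the diet difference itself differed between lobes for none, against 0.00854% of all genes, which is 1 gene. At an unadjusted p under 0.05 there were 6, 4 and 4 inhibitors in these comparisons, against 15.2%, 5.63% and 8.44% of all genes. Groups of arrays that did not overlap were found for 2 inhibitors in VP, Wfdc3 and Serpinb9, where 2.58% of all genes had them, and for 1 in DLP, Spink8, where 3.15% did. The smallest adjusted p was 0.61 in DLP and 0.5 for the difference between lobes.

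Serpinh1 encodes HSP47, a chaperone of the endoplasmic reticulum that folds procollagen and inhibits no protease. It read 5.37, 5.22, 5.59, 5.26 and 5.01 in control VP and 4.50, 4.33, 5.05, 4.83 and 4.60 in HFD VP. The HFD arrays were the lower ones, and HFD VP 3 at 5.05 was the only one to overlap with the control range. The difference was -0.63 ± 0.12 (SE; 95% interval -0.87 to -0.38), a 1.54-fold lower level, with an adjusted p of 0.018 and an exact permutation p of 0.016. In DLP the level was 5.13 ± 0.11 (SD, n = 5) in control and 4.94 ± 0.10 (SD, n = 4) in HFD samples, a difference of -0.19 (95% interval -0.44 to 0.07, adjusted p = 0.97). The diet differences of the lobes did not differ past the threshold (0.44, adjusted p = 0.5).

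The call on Serpinh1 was lost with the VP arrays alone in the fit (adjusted p = 0.19) and with the mean of its 2 probe sets (-0.55, adjusted p = 0.073), while it held with each array left out in turn (adjusted p 0.0041 to 0.037). Its second probe set read 4.83 ± 0.22 in control VP and 4.37 ± 0.38 in HFD VP (exact permutation p = 0.056). The mean of 6 fibroblast markers ran from 5.28 to 5.95 in control VP and 5.12 to 5.97 in HFD VP, with 0 of 6 passing. The collagen genes among them gave -0.57 for Col3a1 (adjusted p = 0.15), -0.31 for Col1a1 (adjusted p = 0.33) and -0.27 for Col1a2 (adjusted p = 0.42). The mean of 11 heat shock genes ran from 6.14 to 6.70 and 6.10 to 6.48, also with 0 passing, and the part of either in the Serpinh1 difference was not tested.

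The promoter of Serpinh1 is shown because this gene carried the diet call. The window, from RefSeq on GRCm38.p6, runs from 250 bases before to 50 after the start on the minus strand at chr7:99353190-99353489, and capitals mark GGGCGG, the GC box bound by Sp1.
Serpinh1: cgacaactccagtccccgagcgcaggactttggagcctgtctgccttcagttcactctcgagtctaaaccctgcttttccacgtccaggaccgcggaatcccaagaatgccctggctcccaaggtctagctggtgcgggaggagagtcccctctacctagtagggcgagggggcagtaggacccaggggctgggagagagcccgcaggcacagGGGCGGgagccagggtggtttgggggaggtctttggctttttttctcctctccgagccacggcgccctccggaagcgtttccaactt
The 22 tested inhibitors with a matched promoter had 25 such windows. A GC box, on either strand, lay in 12 of the 25 windows, which belong to 11 genes, and in 35.66% of all 32851 promoters of the same length.

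Wfdc3, a WAP gene, had the widest diet difference among the inhibitors in VP. It read 9.05, 9.07, 9.24, 9.16 and 10.10 in control VP and 8.65, 7.77, 8.02, 4.47 and 8.05 in HFD VP. All HFD arrays were below all control arrays, and HFD VP 4 was far below the rest. The difference was -1.93 ± 0.56, with an adjusted p of 0.098 that missed the threshold and an exact permutation p of 0.0079. Without HFD VP 4 it was -1.20 (adjusted p = 0.099), and over all alternatives its adjusted p ran from 0.069 to 0.33.

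In DLP, Wfdc3 read 9.32, 9.75, 9.79, 10 and 9.13 on the control diet and 8.41, 9.46, 7.66 and 7.14 on the high fat diet. HFD DLP 2 was the only HFD array inside the control range. The difference was -1.43 (95% interval -2.67 to -0.18, adjusted p = 0.84, exact permutation p = 0.048). Its other probe set was above the array median on 3 arrays and gave -0.27 in VP and 0.05 in DLP.

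The promoter of Wfdc3 is shown for the letters AGAACA, which form an arm of the DNA element bound by androgen and glucocorticoid receptors. On GRCm38.p6 it lies on the minus strand at chr2:164743218-164743517, and the capitals mark both matches, which read TGTTCT because they lie on the other strand.
Wfdc3: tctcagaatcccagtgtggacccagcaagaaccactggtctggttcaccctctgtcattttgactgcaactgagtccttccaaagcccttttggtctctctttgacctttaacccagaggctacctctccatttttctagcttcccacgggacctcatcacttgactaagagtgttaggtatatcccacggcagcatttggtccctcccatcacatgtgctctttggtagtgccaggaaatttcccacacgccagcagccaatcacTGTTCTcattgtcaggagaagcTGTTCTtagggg
Of the 25 windows of the 22 inhibitors, 5 held AGAACA on either strand (Cst3, Serpina3n, Serpinb6e, Serpinb8 and Wfdc3), against 18.97% of all promoters. A match is a description of letters and not a binding site.

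**Figure D4:**
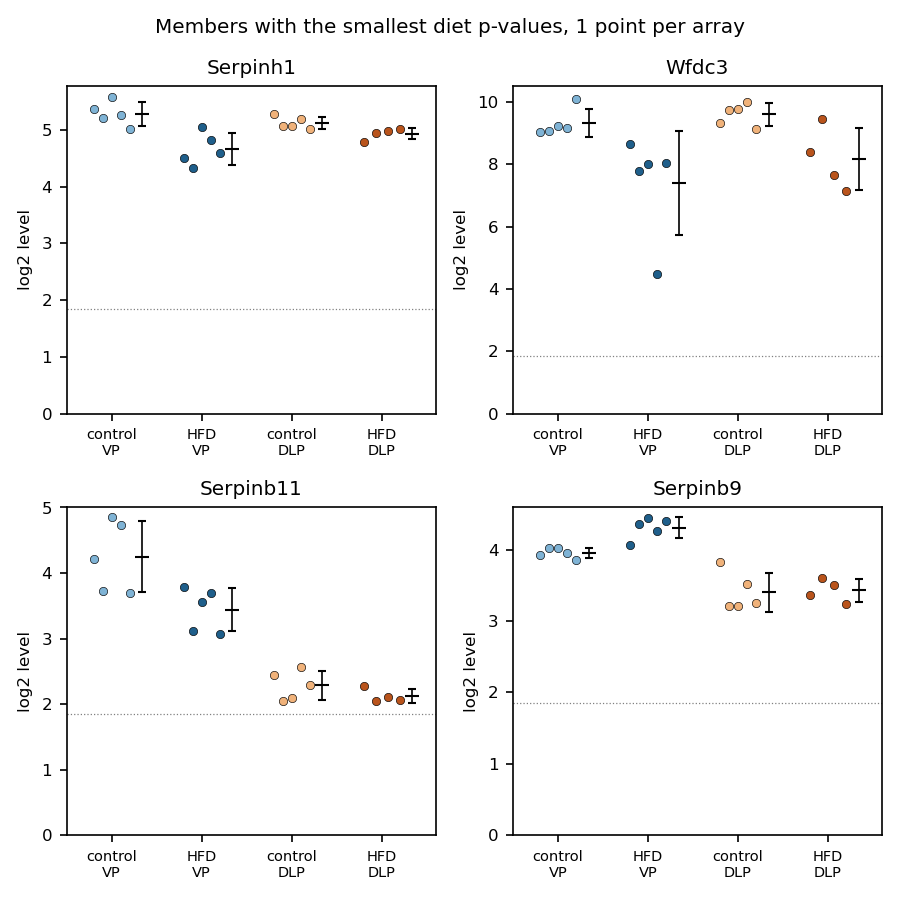
Log2 level of 4 inhibitors with small diet p-values in VP, 1 point per array, with the mean and SD of each group beside the points and the array median of 1.85 as a dotted line. Serpinh1 is the one that passed after adjustment, and 1 HFD VP array of Wfdc3 lies at 4.47.

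Serpinb11, given by array above, differed by diet in VP by -0.81 ± 0.20, with an adjusted p of 0.054 and an exact permutation p of 0.032. One HFD array, at 3.78, lay inside the control range of 3.70 to 4.85. It passed under 5 alternatives, with adjusted p from 0.029 to 0.048, among them without control VP 2 and without control VP 5. In DLP its difference was -0.16 (95% interval -0.61 to 0.28).

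Serpinb9 read 3.93, 4.02, 4.02, 3.95 and 3.86 in control VP and 4.07, 4.36, 4.45, 4.27 and 4.41 in HFD VP. Each HFD array was above each control array, by small steps. The difference was 0.35 ± 0.11 (adjusted p = 0.12, exact permutation p = 0.0079), and it was 0.03 in DLP (95% interval -0.21 to 0.27). The second probe set of Serpinb9, above the median on all 19 arrays, gave 0.21 in VP (exact permutation p = 0.048). In DLP that probe set gave 0.17 (exact permutation p = 0.063). Serpinb8 gave -0.53 in VP (adjusted p = 0.12) and 0.06 in DLP.

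In DLP the smallest p among the inhibitors was that of Spint2, which read 9.41, 9.51, 9.44, 9.74 and 9.57 on the control diet and 10.14, 10.03, 9.88 and 9.55 on the high fat diet. HFD DLP 4 was inside the control range and the other HFD arrays were above it. The difference was 0.37 (95% interval 0.15 to 0.58, adjusted p = 0.61, exact permutation p = 0.048). The probes of this probe set can match other transcripts, and the other probe set of Spint2, above the median on all 19 arrays, gave 0.11 in DLP (exact permutation p = 0.032). Spink8, given by array above, was higher on all HFD DLP arrays than on any control DLP array, by 0.49 (95% interval -0.41 to 1.39, adjusted p = 1.0, exact permutation p = 0.016). That interval and adjusted p rest on a spread shared with VP, where the SD of Spink8 was 0.81 in control and 1.13 in HFD samples. In DLP its SD was 0.15 and 0.25.

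Spink1 and Spink5 had the next smallest p-values in DLP together with Wfdc3. Spink1 differed by -2.89 (95% interval -5.50 to -0.28, adjusted p = 0.85, exact permutation p = 0.22) and Spink5 by -0.98 (-1.85 to -0.12, adjusted p = 0.84, exact permutation p = 0.14). Both rested on arrays that differed within their group, as their values by array show. Without control DLP 2 and HFD DLP 2, a pair chosen after the data were seen, the Spink1 difference was -4.04 and passed with an adjusted p of 0.011. These arrays held the highest Spink1 values of their groups, 11.81 and 11.58, so that this pass is not read as a diet result. Without control DLP 2 alone the Spink1 difference was -2.09, and without HFD DLP 2 alone -4.85 (adjusted p = 0.094). In VP, Spink1 was 12.31 ± 0.15 (SD, n = 5) and 12.65 ± 0.11 (SD, n = 5), and its difference of 0.34 did not pass (adjusted p = 0.93, exact permutation p = 0.016). That adjusted p rests on a spread shared with DLP, where the SD of Spink1 was 2.33 in control and 3.93 in HFD samples.

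Several inhibitors were high on the same single arrays rather than in 1 diet. Wfdc18 read 3.87, 1.12, 4.59, 3.36 and 1.42 in control VP, 1.48, 1.14, 4.27, 3.27 and 1.34 in HFD VP, 4.11, 0.85, 0.52, 0.70 and 0.87 in control DLP, and 0.56, 1.30, 0.64 and 0.57 in HFD DLP. It was above the array median on control VP 1, 3 and 4, HFD VP 3 and 4, and control DLP 1, and below it on the other 13 arrays. Its diet difference in VP was -0.57 (95% interval -2.12 to 0.97) and its lobe differences were -1.46 (adjusted p = 0.10) and -1.53 (adjusted p = 0.11).

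Wfdc17, a WAP gene induced in activated macrophages, read 3.69, 2.33, 3.26, 3.92 and 2.04 in control VP and 2.35, 2.66, 3.99, 3.04 and 2.59 in HFD VP. In DLP it read 3.28, 1.87, 1.68, 1.83 and 2.00 on the control diet and 2.11, 2.52, 2.07 and 2.33 on the high fat diet. It was highest on the arrays where Wfdc18 was above the median. It was lower in DLP on the control diet (-0.91, adjusted p = 0.038, exact permutation p = 0.063) but that call was lost in 12 of 33 alternatives, among them without control VP 1, 3 or 4 or control DLP 2, 3, 4 or 5, with adjusted p up to 0.11. With an offset of 16 it was -0.28 (adjusted p = 0.059). In HFD mice it did not pass (-0.67, adjusted p = 0.15).

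Wfdc17 and Wfdc18 lie side by side on their chromosome with 0 protein coding genes between them. Of 24 such neighbouring pairs among the 75 inhibitors, this is the 1 in which both genes were tested. Their promoters are shown because the levels of both moved over the same arrays. Both windows, on the plus strand of GRCm38.p6 at chr11:83703806-83704105 and chr11:83708754-83709053, hold the TATA box letters TATAAA, in capitals. The position differs: the letters span the annotated start in Wfdc17 and lie wholly before it in Wfdc18.
Wfdc17: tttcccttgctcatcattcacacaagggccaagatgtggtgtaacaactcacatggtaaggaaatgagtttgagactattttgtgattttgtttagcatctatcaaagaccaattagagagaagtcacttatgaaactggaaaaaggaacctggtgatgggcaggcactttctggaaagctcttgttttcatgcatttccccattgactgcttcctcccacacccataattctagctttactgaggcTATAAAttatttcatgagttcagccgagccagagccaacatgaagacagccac
Wfdc18: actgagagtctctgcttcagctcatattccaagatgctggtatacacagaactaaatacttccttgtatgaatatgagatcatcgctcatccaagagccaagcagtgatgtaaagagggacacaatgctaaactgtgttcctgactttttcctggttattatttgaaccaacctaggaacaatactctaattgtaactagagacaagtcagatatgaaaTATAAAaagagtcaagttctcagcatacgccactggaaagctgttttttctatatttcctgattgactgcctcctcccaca
No other of the 22 inhibitors had TATAAA in a window, so that 2 of their 25 windows held it, and 13.62% of all promoters did. The probe set of Wfdc18 carries a suffix for probes that can match more than 1 transcript, so signal of related sequences cannot be told apart there.

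Other inhibitors were also high on some of these arrays. Serpina3n was highest at 2.99 and 3.17 on control VP 1 and 3, at 2.70 on HFD VP 3 and at 2.76 on control DLP 1. Timp1 was highest at 3.22 and 3.37 on the first pair, at 3.48 on HFD VP 3 and at 4.28 on control DLP 1. Slpi reached 3.43 on control DLP 1 and at most 2.15 elsewhere, and Serpinf1 read 4.85, 4.76 and 4.30 on control VP 1, HFD VP 3 and control DLP 1. The highest VP values of Wfdc2 were 7.70 and 7.38 on HFD VP 3 and 4 and 7.19 and 5.86 on control VP 1 and 4. Its highest DLP value, 2.90, was on control DLP 1. Serpinb1a in VP was highest on control VP 1, 3 and 4 and HFD VP 3 and 4, while its control DLP 1 value of 5.80 lay within the range of its group.

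On the same arrays, the mean of 6 acute phase and epithelial defence genes, which include Saa1, Saa3 and Lcn2, was 5.33, 4.66 and 3.63 on control VP 1, 3 and 4, against 2.82 and 2.86 on the other control VP arrays. It was 5.12 and 3.25 on HFD VP 3 and 4 against 2.72 to 2.79 on the other HFD VP arrays, and 5.83 on control DLP 1 against 2.56 to 3.00 on the other DLP arrays. The mean of 5 leukocyte markers was 2.93 on control DLP 1, 3.06 to 3.90 on these VP arrays, and 2.35 to 2.72 on all others. Of 8 leukocyte markers on the array, Cd3e, Cd79a and Itgam did not reach the filter. The part of inflamed tissue or leukocyte RNA in these inhibitor levels was not tested. None of the acute phase or leukocyte genes passed a diet comparison.

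**Figure D5:**
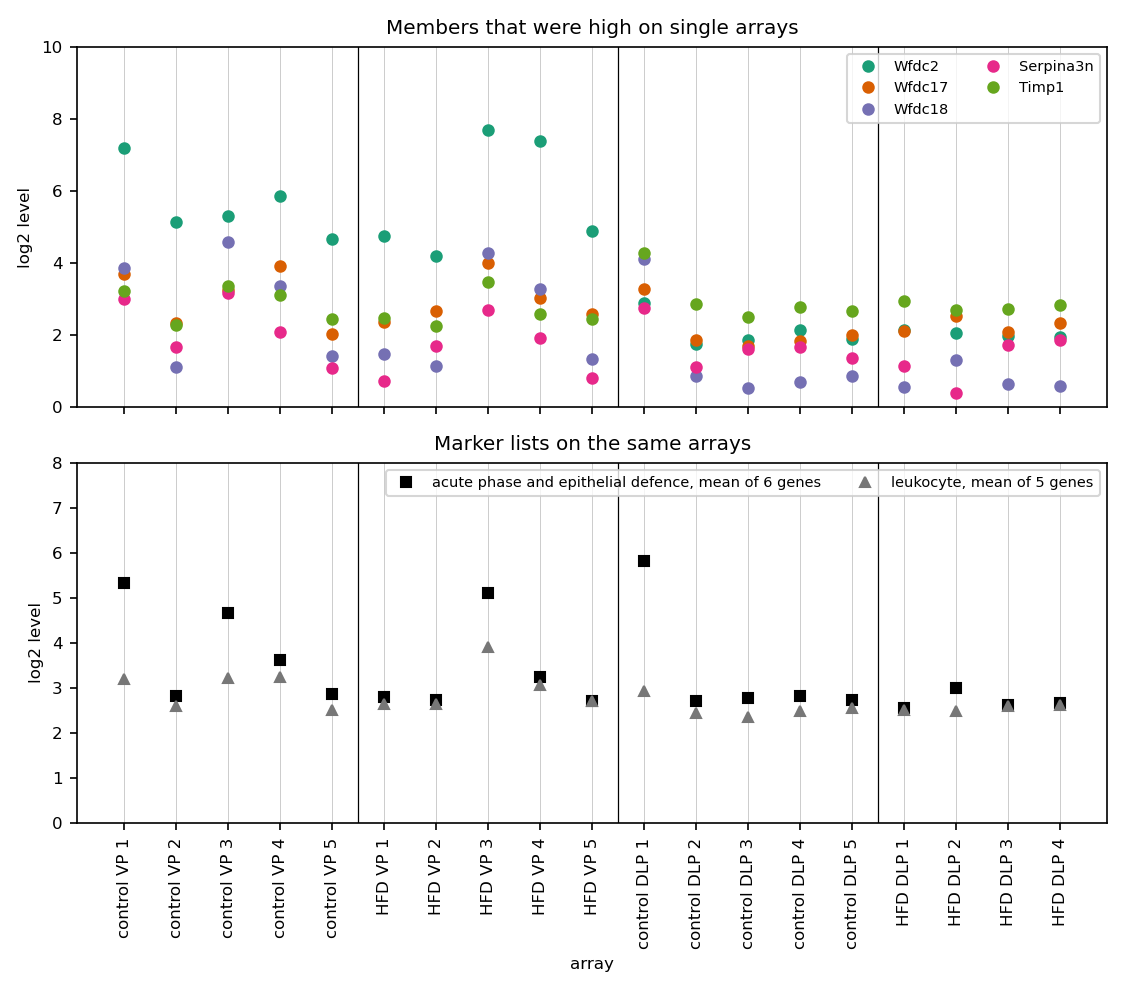
Top, log2 level of Wfdc2, Wfdc17, Wfdc18, Serpina3n and Timp1 on each of the 19 arrays, and below, the mean log2 level of 6 acute phase genes and of 5 leukocyte markers on the same arrays. The highest acute phase means, 5.83, 5.33, 5.12 and 4.66, fall on the arrays where Wfdc18 is highest.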

How the data were processed

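Each sample was 1 array, grouped by its title. The authors deposited values on a logarithmic scale taken here as log10 with an offset of 1, a base inferred from hybridization controls and on which folds rest. Steps between successive controls were 0.53, 0.74 and 0.96, where log10 of the nominal steps is 0.52, 0.7 and 0.6. The last step was thus larger than log10 gives, and the base is not settled. The offset was assumed, as these steps do not give it. MAS5 is named per the submitters' processing notes. The values lay between 0 and 3.99. All arrays held the same sorted values, so only ranks carry information and a shift common to most genes cannot be seen. Arrays of 1 group correlated at 0.9635 to 0.9924. Detection calls were not used here, so the array median marked low values.

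Values were converted to log2 without further normalization. Of 45101 probe sets, 34945 carried 1 symbol, and 3 inhibitor probe sets with several symbols were left out. The 11715 tested genes were fitted with limma 3.58.1 in R 4.3.3 (4 group means, mean-dependent prior, two-sided, Benjamini-Hochberg over all tested genes, threshold 0.05). Exact permutation tests were two-sided (SciPy 1.17.1). The fit was tested on simulated data of 11715 genes: it recovered 65.7%, 92.5% and 98.5% of genes changed by 0.5, 1 and 2 for diet in VP, and 64.2%, 95.5% and 100% in DLP. The simulated noise was normal, with 1 spread per gene in all groups. These shares therefore do not hold for genes such as Spink1 and Wfdc3, whose spread differed between groups. Named genes were the 8 inhibitors with the highest mean per lobe, up to 12 per direction past the threshold between lobes, all past it or the 8 smallest p-values per diet contrast, and the 2 highest tested per family. From other lists, up to 3 with the largest difference per contrast were named. Wfdc1, Wfdc18, Slpi, Timp1 and single marker genes fall outside this rule and were chosen after their values were seen. The members, lists and rules were chosen with earlier results of these data known. Alternatives covered the offset, filter, probe sets, prior, weights, replicate number as a block, arrays in the fit, cyclic loess, threshold and each array left out. The 2 that leave out groups of arrays (DLP arrays numbered 2, and control VP 1, control VP 3, HFD VP 3 and control DLP 1) were chosen after seeing the data. Promoters came from RefSeq (GRCm38.p6), with 22 of the 28 tested inhibitors matched.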

Additional observations from a re-analysis of the deposited data

Results flagged for a closer look

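Within the 112 groups of 4 or 5 arrays examined (28 inhibitors in 4 groups), 11 had 1 array apart from the others by Dixon's criterion, where chance gives about 1 in 20, or 5.6. On control DLP 1, Timp1 at 4.28, Wfdc17 at 3.28 and Wfdc18 at 4.11 were above the rest of their group, whose next values were 2.85, 2.00 and 0.87. On HFD DLP 2, Spink1 at 11.58 and Wfdc18 at 1.30 were above the next values of 4.07 and 0.64. On HFD DLP 3, Serpinb8 at 2.5 was the highest and Spint1 at 5.58 the lowest of 4 arrays, the latter by 0.04 from a next value of 5.62. Wfdc3 stood apart at 10.10 on control VP 5 and at 4.47 on HFD VP 4, with next values of 9.24 and 7.77. Spink8 at 6.69 on control DLP 5 and Timp1 at 3.48 on HFD VP 3 were the highest of their groups.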

How the results depend on the processing

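No named inhibitor changed direction in any comparison that had passed, under any alternative. Of 34 lobe results that passed, 27 passed in every alternative in which the gene was tested. The filter at the 75th percentile left out Serpinb5 and Serpinb8, whose results on the high fat diet are among the 27. Of these, Serpinb8 had reached the main filter through its DLP arrays. The other results are named with their lobe values. The number of arrays limits the precision, and genes near the array median have little room to be lower. Without the arrays numbered 2, lobe counts were 17 and 16. The count of inhibitors that differed by diet in VP was 1. It was 2 with an offset of 16 and with a filter at the 75th percentile, 0 with the mean of probe sets, 0 with the VP arrays alone, 0 at a threshold of 0.01 and 3 at 0.10, and between 1 and 2 with each array left out. Counts in DLP and for the difference between lobes were 0, except 1 in DLP without the arrays numbered 2. Lobe counts on the control diet ran from 12 of 28 (threshold 0.01) to 23 with no filter, where all 75 inhibitors were fitted. On the high fat diet they ran from 13 (filter at the 75th percentile, with fewer inhibitors fitted) to 18 of 28 (threshold 0.10). Counts with unlike numbers of fitted genes are not comparable as shares. The share of all genes under each alternative is not given here for any count in this section. Titles share replicate numbers between groups, but these are not said to mark a mouse. Same-numbered arrays of the lobes correlated at -0.06 to 0.19 after group means were removed, and 5 of 9 correlated best with their own number. With the number as a fixed replicate block, 2 inhibitors passed by diet in VP, Serpinh1 (adjusted p = 0.014) and Serpinb11 (adjusted p = 0.029), and with diet and number as a random block (correlation 0.044) the count was 1. Over all alternatives, the adjusted p of the results that changed sides ran as follows. By diet in VP it was 0.0041 to 0.19 for Serpinh1 and 0.029 to 0.29 for Serpinb11, and by diet in DLP it was 0.011 to 1.0 for Spink1. Between lobes on the control diet it was 4.6e-07 to 0.082 for Spink1, 3.6e-04 to 0.072 for Serpinb5, 0.0064 to 0.055 for Serpinb6a, 0.0022 to 0.063 for Serpinb8, 0.0015 to 0.088 for Wfdc6a and 0.0059 to 0.11 for Wfdc17, and on the high fat diet 0.0032 to 0.16 for Wfdc6a. The cause of these changes was not tested.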
